A study of Rattus norvegicus with 18 samples.

Results

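The EPO-treated ischemic cortex was followed between 2 h and 6 h after middle cerebral artery occlusion (MCAO), a stroke model in which blocking this artery deprives the cortex it feeds of blood. The comparison used 6 of the 18 arrays of the series: all 3 arrays labelled as EPO-treated ischemia at 6 h and all 3 labelled as EPO-treated ischemia at 2 h. Samples were chosen by these labels alone and not by any measured value. All were brain cortex of male Crl:CD(SD)BR rats, and each sample was total RNA on a 1-colour Agilent array. The EPO groups had MCAO and erythropoietin (EPO), whose dose the labels do not give. The other 12 arrays were MCAO with saline at 6 h and at 2 h, and sham operation with no treatment at 6 h and at 2 h, 3 arrays each. The labels do not say whether the arrays of a group came from separate animals, so p-values measure the spread between these samples. The comparison asks what changed in the treated lesion between the times, whether saline-treated lesions changed alike, and what time after operation alone did in sham cortex.

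Erythropoietin is the cytokine that drives red cell formation. Its receptor, Epor, signals through the kinase JAK2 and STAT transcription factors, and EPO has been studied as a neuroprotective agent in stroke. After arterial occlusion, neurons first switch on immediate-early genes, which need no new protein to be transcribed. Chaperones and stress-response genes follow, and then endothelial cells and glia make adhesion molecules, chemokines and matrix proteins that recruit leukocytes and remodel the tissue.

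Levels below are log2 signals relative to the 75th percentile of their array, so that 0 is that percentile and 1 unit is 2-fold. A change is the mean level at 6 h minus the mean at 2 h, given ± its standard error from limma, with 3 arrays at each time. Probes were called at a Benjamini-Hochberg adjusted p under 0.05. Spike-in controls of known amount were used to class the arrays: EPO 6 h replicate 3 and EPO 2 h replicate 1 had slopes of 0.926 and 0.938, above 0.9, while the other 4 EPO arrays had slopes of 0.847 to 0.863. Both of these steep arrays lay on slide 5 and had fewer probes well above background, 62.3% to 64.3% against 73.5% to 78.4%. Each time thus held 1 steep array. The saline groups held 2 steep arrays at 6 h and 1 at 2 h, and the sham groups 1 at 6 h and 0 at 2 h, so slope class was not balanced there. In a principal component analysis of the 6 EPO arrays, the component with 82.5% of the variance set the steep arrays apart, and the next, with 8.66%, separated the times. The first component also spread the other 4 EPO arrays widely, with scores of -122 to -17.

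**Figure D1:**
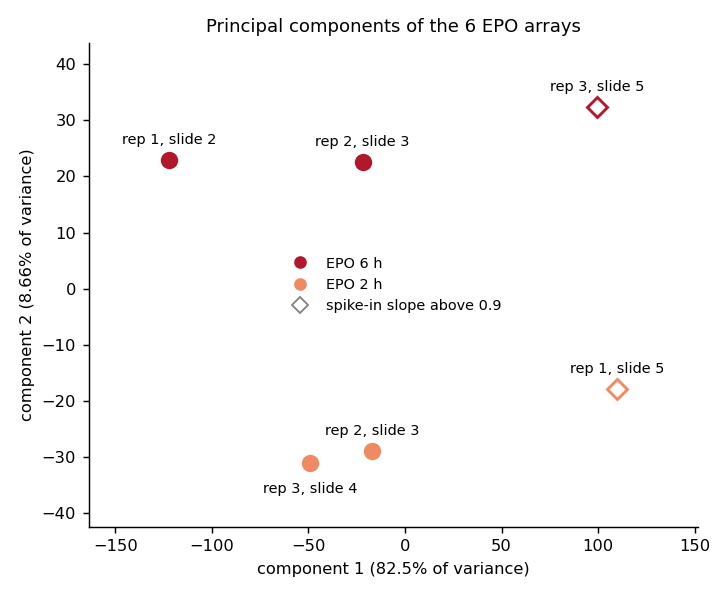
Scores of the 6 EPO arrays on the first and second principal components of 28637 probes; filled circles are arrays with a spike-in slope under 0.9, open diamonds those above 0.9, dark red EPO 6 h and orange EPO 2 h. The steep arrays have the highest scores on component 1, 99.7 and 110, and the others spread from -122 to -17. On component 2 all 6 h arrays are positive, 22.6 to 32.4, while all 2 h arrays are negative, -31 to -17.9.

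Between the times, transcripts that rose in EPO-treated cortex included the adhesion molecule Sele, chemokines such as Ccl2, the interferon-inducible GTPase Gbp2, the protease inhibitor Serpina3n, the matrix protein Spp1, the stress protein Hspb1 and the vascular factor Angpt2. Those that fell included Tmem119 and P2ry12 of resting microglia, Neurod6 of excitatory neurons and the orphan nuclear receptors Nr4a1, Nr4a2 and Nr4a3. Of 28637 probes tested, 3241 (11.3%) were called, 1315 (4.59%) higher and 1926 (6.73%) lower at 6 h. At 2-fold or more, 235 were higher and 30 lower. Among 12429 genes, each read through its brightest probe, 720 (5.79%) were higher and 1004 (8.08%) lower, together 13.9%. The median change over these genes was -0.01. The called rises had a median of 0.55 and the called falls a median of -0.36. The 6 h and 2 h arrays did not overlap for 26.3% of all probes tested. The largest rises and falls named below were chosen among called genes without overlap, so their lack of overlap was fixed by the choice.

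The split of calls depended on the scaling. Higher calls made up 40.6% of the calls with the 75th percentile at 0, 77.6% of 1227 calls without scaling and 89.7% of 87 calls with the array median at 0, which moved the median of all probes to -0.19, from 0.01. Calls numbered 213 in a fit of the 6 EPO arrays alone and 1130 without the steep arrays of all groups. Of 104 named genes called, 66 lost the call in the fit of the 6 EPO arrays alone. Among them were Serpina3n, Serpinb2, Ccl20, Kng1, Slpi, Cxcl10, Hspa1a, Trib3, Abra, Tmem119, Npy1r and Neurod6. Leaving out EPO 6 h replicate 1, EPO 6 h replicate 2 or EPO 2 h replicate 2 gave 1869, 1944 and 1898 calls. All 3241 called probes kept their sign in each of these fits except with the array median at 0, where 3236 did. The fit of the 6 EPO arrays alone has the same changes as the main fit, so no sign could differ there. The other fits share arrays with the main fit, so the kept signs are not independent support. Slides 3 and 5 each held 1 array of each time, and the difference within the slide had the sign of the fit for 100% of called probes on slide 3 and 99.8% on slide 5; these arrays were part of the fit. Where a gene had several probes, not all were called for Nr4a3, Il1rn, Cxcl12, Fas, Mcl1, Fgf2, Flt1, Cp and Sox9; the other Fgf2 probe was at 0.59 (adjusted p = 0.26) and the other Fas probe at 0.91 (adjusted p = 0.383).

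Sele encodes E-selectin, the receptor on activated endothelium on which leukocytes begin to roll. Its level was 0.04, 0.3 and -0.9 at 6 h, against -5.36, -5.44 and -5.41 at 2 h, and the 2 h arrays were all below background. Sele was therefore at least 26.8-fold higher at 6 h (adjusted p = 5.54e-05), a bound set against the dimmest signal that counts as above background, and the groups did not overlap. Icam1, which arrests rolling leukocytes on the vessel wall, had levels of 1.64, 1.81 and 1.38 at 6 h, against 0.09, -0.13 and -0.07 at 2 h. It rose by 1.65 ± 0.14, or 3.13-fold (adjusted p = 2.39e-05), and its groups lay far apart. Of 16 measured genes of NF-kB feedback and leukocyte adhesion, 9 rose and 0 fell (56.2% called, against 13.9% of all genes), with a median change of 0.59. Besides Sele and Icam1 they were Cebpd, a transcription factor of the acute phase, at 1.1 ± 0.12, and Birc3, an inhibitor of apoptosis, at 1.75 ± 0.38. Ptges, the synthase of prostaglandin E2, the receptor Tlr2 and the NF-kB subunits Nfkb1, Nfkb2 and Rela completed the count. Vcam1, a related adhesion molecule, was at 0.1 ± 0.08 and did not pass (adjusted p = 0.494).

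Chemokines formed the next group, and they are the signals that draw leukocytes into tissue. Ccl2, the main attractant of monocytes, had levels of 2.31, 2.45 and 2.41 at 6 h, against -0.49, -1.17 and -1.34 at 2 h. The 6 h arrays lay within a narrow band far above the 2 h arrays, a 10.5-fold rise (3.39 ± 0.35, adjusted p = 8.98e-05). In sham cortex the 6 h minus 2 h difference of Ccl2 was 1.72. The EPO change of Ccl2 did not pass the limma test against the sham change (adjusted p = 0.1). Ccl7, which shares a receptor with Ccl2, rose by 2.57 ± 0.4 (adjusted p = 0.00127). Ccl20 and Ccl12 were below background on every 2 h array and were at least 5.5-fold and at least 4.73-fold higher at 6 h. Cxcl10, an attractant of T cells made in response to interferon, had levels of -1.3, -1.07 and -1.71 at 6 h, against -3.11, -3.35 and -3.87 at 2 h. It rose by 2.08 ± 0.24, 4.24-fold, with no overlap. In all, 11 of 23 measured cytokines and chemokines rose and 1 fell (52.2% called, against 13.9% of all genes), with a median change of 1.03. Il1b, the interleukin that starts much of the inflammatory cascade, rose by 1.34 ± 0.29 (adjusted p = 0.0093), its kin Il1a by 1.6 ± 0.31 and the receptor antagonist Il1rn by 0.99 ± 0.15. Csf1, a growth factor of microglia and macrophages, rose by 1.06 ± 0.08 (adjusted p = 4.92e-06), whereas Cxcl12 fell, with a change of -0.48 ± 0.12. Tnf and Il6 were at 0.77 ± 0.31 and 1.06 ± 0.49 and did not pass (adjusted p = 0.138 and 0.205).

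Promoters of the strongly moving genes, 250 bases before to 50 bases from the transcription start in the RefSeq annotation of the rat build GRCr8, were searched on both strands for short motifs. Each motif was spelled as 1 fixed form: GGANTTTCC for NF-kB, TGANTCA for AP-1 (the site of Fos and Jun dimers) and GAANNTTC for the heat shock element, where N is any base. Over 27457 promoters, 1.26% held the NF-kB form, 7.33% the AP-1 form and 8.34% the heat shock form. Serpina3n, Serpinb2 and Slco1a5 are shown because they are among the 4 largest rises or falls and hold one of these. Also searched were the CRE (TGACGTCA), its core (TGACG), CARE (TGATGNAAT), the serum response element (CCATATNAG), the GC box (GGGCGG), the Egr site (GCGGGGGCG) and the E-box (CACGTG), in 1.91%, 22.0%, 1.05%, 0.488%, 34.9%, 2.78% and 6.65% of promoters. The CRE core and the GC box were not used to choose sequences, and Npy1r, whose promoter held only the core, is not shown. Icam1, Cxcl10 and Hspb1 were chosen after their values were seen, as strong risers of the adhesion, chemokine and chaperone lists whose promoters hold the motif that is named for the list or its pathway. Capitals mark the motif, and each run is given 5′ to 3′ on the strand of the gene. A match is a run of letters and not a shown binding site. The positions are chr8:27829595-27829894, plus strand for Icam1 (NF-kB), chr14:15988816-15989115, plus strand for Cxcl10 (NF-kB and AP-1), chr12:26432252-26432551, minus strand for Hspb1 (2 heat shock elements), chr6:129088142-129088441, plus strand for Serpina3n (heat shock element), chr13:24055771-24056070, plus strand for Serpinb2 (AP-1) and chr4:176963763-176964062, minus strand for Slco1a5 (AP-1).
Icam1: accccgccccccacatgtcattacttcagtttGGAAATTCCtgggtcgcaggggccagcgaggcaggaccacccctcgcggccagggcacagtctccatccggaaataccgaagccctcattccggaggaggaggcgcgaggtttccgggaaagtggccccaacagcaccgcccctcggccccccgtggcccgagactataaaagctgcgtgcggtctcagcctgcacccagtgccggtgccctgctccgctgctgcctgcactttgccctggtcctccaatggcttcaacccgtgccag
Cxcl10: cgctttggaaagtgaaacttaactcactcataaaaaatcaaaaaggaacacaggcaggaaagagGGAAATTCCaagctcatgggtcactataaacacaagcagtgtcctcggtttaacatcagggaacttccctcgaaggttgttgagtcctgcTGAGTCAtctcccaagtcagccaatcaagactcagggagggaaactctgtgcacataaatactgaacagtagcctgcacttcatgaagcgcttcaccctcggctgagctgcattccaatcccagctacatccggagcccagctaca
Hspb1: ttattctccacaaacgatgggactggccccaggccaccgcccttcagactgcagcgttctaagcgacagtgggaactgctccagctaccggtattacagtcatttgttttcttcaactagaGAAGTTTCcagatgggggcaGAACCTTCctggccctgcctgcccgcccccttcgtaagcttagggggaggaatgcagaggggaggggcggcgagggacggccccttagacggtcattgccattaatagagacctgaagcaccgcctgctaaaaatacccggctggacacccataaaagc
Serpina3n: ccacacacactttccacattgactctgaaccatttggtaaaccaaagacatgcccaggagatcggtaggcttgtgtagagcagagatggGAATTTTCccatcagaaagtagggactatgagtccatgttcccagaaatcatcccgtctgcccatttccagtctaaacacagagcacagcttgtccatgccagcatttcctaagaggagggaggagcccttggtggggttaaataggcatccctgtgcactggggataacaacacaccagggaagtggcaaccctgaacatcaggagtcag
Serpinb2: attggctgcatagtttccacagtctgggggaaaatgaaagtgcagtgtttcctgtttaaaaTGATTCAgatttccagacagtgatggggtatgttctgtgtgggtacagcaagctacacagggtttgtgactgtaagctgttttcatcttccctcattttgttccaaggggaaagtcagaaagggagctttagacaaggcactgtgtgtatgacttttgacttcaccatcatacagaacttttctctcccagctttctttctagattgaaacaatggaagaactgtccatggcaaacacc
Slco1a5: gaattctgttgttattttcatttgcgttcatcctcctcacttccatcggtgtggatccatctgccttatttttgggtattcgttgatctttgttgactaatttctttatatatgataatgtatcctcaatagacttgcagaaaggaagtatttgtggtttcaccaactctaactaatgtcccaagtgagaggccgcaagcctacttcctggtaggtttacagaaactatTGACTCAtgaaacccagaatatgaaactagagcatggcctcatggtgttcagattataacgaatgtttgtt
The NF-kB form stood in 5 of the 14 promoters given for the NF-kB and adhesion list, those of Nfkbia, Nfkbiz, Nfkb1, Nfkb2 and Icam1, of which Nfkb1, Nfkb2 and Icam1 rose. It stood in 4 of 15 for the cytokines, those of Il6, Cxcl1, Cxcl10 and Cxcl11, of which only Cxcl10 passed the test. The heat shock form stood in 10 of 17 promoters of the chaperone list, among them Hspb1, Hspb8 and Hsph1, which rose. None of these motifs was found in the promoter window of Sele.

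Genes of matrix, proteolysis and coagulation had the most calls of any list, with 18 of 27 measured members higher and 0 lower. This was 66.7%, against 13.9% of all genes, and the median change was 1.03. Serpina3n, a secreted protease inhibitor of the acute phase that reactive astrocytes make, had levels of -0.02, 2.49 and -0.4 at 6 h, against -4.18, -4.47 and -4.18 at 2 h. It rose by 4.97 ± 0.68, 31.3-fold (adjusted p = 0.000597), although the 6 h arrays spread widely, with replicate 2 highest. Serpina3n also had a difference of 1.72 in sham cortex, and its EPO change did not pass the limma test against sham (adjusted p = 0.0964). Serpinb2, an inhibitor of plasminogen activators, was at -0.37, -0.65 and -1.74 at 6 h, against -7.01, -4.2 and -5.78 at 2 h. It was above background on 3 of 3 arrays at 6 h and on 1 of 3 at 2 h, and changed by 4.75 ± 0.81 (adjusted p = 0.00251). Spp1, the matrix protein osteopontin, was at 2.66, 3.16 and 3.36 at 6 h, against -1.63, -0.67 and -0.67 at 2 h, and rose 16.5-fold with no overlap (4.05 ± 0.68, adjusted p = 0.00224). The proteoglycan Sdc1 gave one of the most even rises of all, with levels of 1.3, 1.55 and 1.48 at 6 h, against -0.43, -0.67 and -0.75 at 2 h and a change of 2.06 ± 0.1 (adjusted p = 1.56e-07). Timp1, the inhibitor of metalloproteinases, rose by 1.85 ± 0.19 and the metalloproteinase Mmp9 by 1.39 ± 0.14. The hyaluronan receptor Cd44 and the lectin Lgals3 rose by 1.67 ± 0.14 and 1.62 ± 0.11; for Cd44, 1 of its 2 probes was called.

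Other genes among the largest rises were Kng1, Slpi, Olr1, Reg3b, Atp8b1 and Fcnb. Kng1, kininogen, the precursor of kinins, was below background on all 2 h arrays and at least 5.41-fold higher at 6 h. Slpi, an inhibitor of leukocyte proteases, was at 0.7, -0.32 and -1.18 at 6 h, against -2.76, -3.08 and -2.84 at 2 h. It rose by 2.63 ± 0.34 (adjusted p = 0.000415), although a second probe of the gene was not called. Olr1, the receptor of oxidised lipoprotein, was above background on 2 of 3 arrays at 6 h and on 0 at 2 h, and was at least 2.09-fold higher. Reg3b, a secreted lectin, and the lipid flippase Atp8b1 were below background on every 2 h array and at least 2.15-fold and at least 2.34-fold higher at 6 h. Fcnb, a ficolin that recognises microbial sugars, rose 4.87-fold (2.28 ± 0.3, adjusted p = 0.000476). In sham cortex the 6 h minus 2 h differences of Kng1, Slpi, Reg3b and Fcnb were 1.06, 1.82, 0.84 and 0.56. Their EPO changes did not pass the limma test against sham (adjusted p = 0.0605, 0.436, 0.22 and 0.0526). Those of Olr1 and Atp8b1 did (adjusted p = 0.0262 and 0.022).

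**Figure D2:**
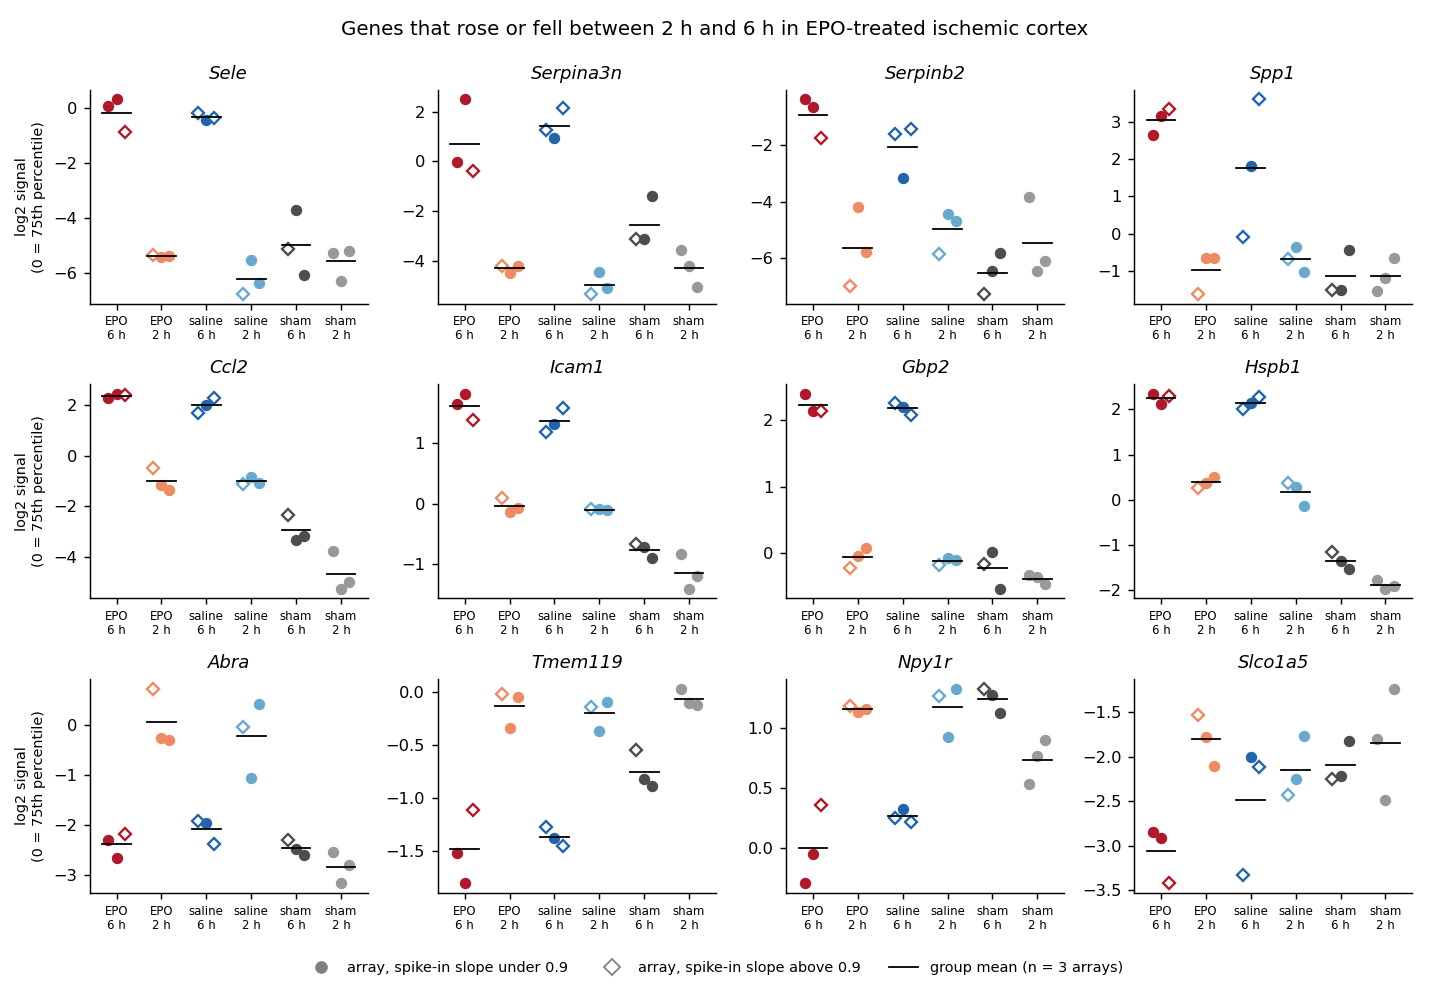
Level of 12 genes on all 18 arrays, in log2 signal with the array's 75th percentile at 0; filled circles are arrays with a spike-in slope under 0.9, open diamonds those above 0.9, and lines are group means (3 arrays). In each panel the EPO 6 h arrays do not overlap the EPO 2 h arrays, while the saline 6 h arrays are spread widely for Spp1, -0.10 to 3.62. Lack of overlap was a condition for choosing these genes, Icam1 and Hspb1 apart.

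Interferon-response genes rose in 11 of 27 measured members and fell in 0 (40.7% called, against 13.9% of all genes), with a median of 0.56. Gbp2, a guanylate-binding GTPase of cell defence, had levels of 2.4, 2.15 and 2.14 at 6 h, against -0.23, -0.04 and 0.07 at 2 h. These were 4.91-fold apart, and the standard error was small (2.3 ± 0.12, adjusted p = 5.27e-07). The related GTPases Igtp, above background on 1 of 3 arrays at 2 h, and Irgm rose by 2.06 ± 0.45 and 0.94 ± 0.13. Irf1, a transcription factor of the interferon response, rose by 0.9 ± 0.14, the ubiquitin-like Isg15 by 1.04 ± 0.17 and the peptide transporter Tap1 by 1.07 ± 0.24.

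Among chaperones, 5 of 20 measured genes rose and 0 fell (25% called, against 13.9% of all genes), and the median was 0.15. The small heat shock protein Hspb1 was at 2.34, 2.13 and 2.29 at 6 h, against 0.27, 0.38 and 0.51 at 2 h. It rose 3.65-fold (1.87 ± 0.13, adjusted p = 4.59e-06) with no overlap. Probes annotated as Hspa1a, the inducible Hsp70, had levels of 5.93, 5.7 and 6.24 at 6 h, against 4.78, 4.9 and 4.55 at 2 h. They rose 2.32-fold (1.21 ± 0.17, adjusted p = 0.000637), and cannot be told apart from the near-identical copy Hspa1b. Cryab, a crystallin of the small heat shock family, rose by 0.59 ± 0.09; its 6 h minus 2 h difference was 0.55 in sham cortex. Hsph1 and Hspb8 rose by 0.54 ± 0.09 and 0.6 ± 0.15.

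Hmox1, heme oxygenase 1, which breaks down heme from lysed cells, had levels of 1.93, 1.79 and 2.08 at 6 h, against 0.22, -0.1 and -0.28 at 2 h. It rose 3.97-fold (1.99 ± 0.17, adjusted p = 1.64e-05). With it, Srxn1, which repairs oxidised peroxiredoxins, rose by 1.47 ± 0.14 and the metal-binding Mt1 by 1.14 ± 0.14, each in 1 of its 2 probes. Of 19 measured genes of the heme oxygenase, metallothionein and Nrf2 list, 5 rose and 0 fell, and the median was 0.17. The integrated stress and unfolded protein response had 8 of 21 higher and 0 lower, with 4 higher without EPO 2 h replicate 2. Trib3, a pseudokinase induced by ATF4, rose by 1.45 ± 0.22, its regulator Ddit3 (CHOP) by 0.5 ± 0.08, the glutathione-degrading Chac1 by 0.74 ± 0.14 and Sesn2 by 0.92 ± 0.23. Of 23 genes of apoptosis and p53, 8 rose and 1 fell. Called shares of the heme oxygenase, stress response and apoptosis lists were 26.3%, 38.1% and 39.1%, against 13.9% of all genes. The death receptor Fas rose by 0.99 ± 0.1 (adjusted p = 9.97e-05), the growth arrest gene Gadd45a by 0.93 ± 0.09, the survival factor Mcl1 by 0.69 ± 0.07 and the cell cycle inhibitor Cdkn1a by 0.87 ± 0.21. Bax and Bbc3, which trigger the mitochondrial pathway, were at -0.06 ± 0.08 and -0.08 ± 0.18 and did not pass (adjusted p = 0.744 and 0.877).

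The receptor of the drug itself did not pass the test. Epor was dim, at -2.98, -3.59 and -3.91 at 6 h, against -3.97, -3.8 and -2.91 at 2 h, and the groups overlapped (0.07 ± 0.34, adjusted p = 0.941). With the array median at 0, with quantile normalization, or without EPO 6 h replicate 1, EPO 2 h replicate 1 or EPO 2 h replicate 2, its change was negative. Epo had 1 probe, which was above background on 1 array of EPO at 6 h and 1 at 2 h and was not tested. Downstream of cytokine receptors, 9 of 22 measured genes of EPO receptor and JAK-STAT-SOCS signalling rose and 0 fell, with a median of 0.44. The called share was 40.9%, against 13.9% of all genes. The count of rises was 4 when EPO 6 h replicate 1 or 2 or EPO 2 h replicate 1 or 2 was left out, and 0 to 15 over 22 alternatives. The kinase Jak2 was at 1.4, 1.75 and 1.48 at 6 h, against 0.88, 0.75 and 0.65 at 2 h, a rise of 0.78 ± 0.11 (adjusted p = 0.000851). Stat3 rose by 0.73 ± 0.1 and Stat5a by 0.41 ± 0.12, and the feedback inhibitors Socs3 and Socs1 by 0.84 ± 0.22 and 0.47 ± 0.12. Receptors of other cytokines rose too: Il4r by 0.96 ± 0.17, Lifr by 0.71 ± 0.18, Lepr by 0.66 ± 0.17 and the shared subunit Il6st by 0.68 ± 0.2. Direct EPO-JAK2-STAT5 targets Cish and Bcl2l1 were at 0.2 ± 0.16 and -0.01 ± 0.06 and did not pass (adjusted p = 0.526 and 0.938).

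Several vascular growth factors and endothelial genes rose. Angpt2, which loosens vessel walls, was at 1.73, 1.74 and 1.49 at 6 h, against -0.06, -0.01 and -0.01 at 2 h. Its rise was 3.2-fold (1.68 ± 0.14, adjusted p = 1.71e-05), in 2 of 3 probes. Among growth factors and neurotrophins, 6 of 23 rose and 0 fell, with Fgf2 at 1.17 ± 0.11, Tgfb1 at 1.06 ± 0.13 and the EGF receptor ligand Hbegf at 1.14 ± 0.17. Hypoxia targets had 6 of 27 higher and 0 lower, with 3 higher without EPO 6 h replicate 2 or EPO 2 h replicate 2. The vasodilator peptide Adm was at 2.05, 1.86 and 2.17 at 6 h, against 0.72, 0.8 and 0.61 at 2 h and rose 2.5-fold (1.32 ± 0.16, adjusted p = 0.000245), Vegfa rose by 0.64 ± 0.1 and the collagen hydroxylase P4ha2 by 0.72 ± 0.13, whereas the glycolytic genes Ldha, Pgk1 and Aldoa, at 0.13, -0.06 and -0.06, did not pass. Of 21 measured endothelial markers, 9 rose and 1 fell. Without any 1 of EPO 6 h replicates 1 and 2 and EPO 2 h replicates 1 and 2, 5 rose (0 to 12 over 22 alternatives). Called shares were 26.1% of growth factors, 22.2% of hypoxia targets and 47.6% of endothelial markers, against 13.9% of all genes. The VEGF receptors Flt1 and Kdr rose by 1.3 ± 0.33 and 0.88 ± 0.15, the co-receptor Eng by 1.0 ± 0.18 and the transcription factor Erg by 0.97 ± 0.22. In sham cortex the 6 h minus 2 h difference of Kdr was 0.57. The one endothelial marker that fell was Slco1a4, an organic anion transporter of the blood-brain barrier, at 0.35, 0.21 and 0.32 at 6 h, against 1.09, 1.39 and 1.43 at 2 h. The fall was 2.02-fold (-1.01 ± 0.13, adjusted p = 0.000296). Its relative Slco1a5 was at -2.84, -2.91 and -3.42 at 6 h, against -1.53, -1.78 and -2.11 at 2 h. Slco1a5 changed by -1.25 ± 0.36 (adjusted p = 0.041), a call that held in 9 of 22 alternative settings. Against sham, the EPO change of Slco1a5 did not pass in limma (adjusted p = 0.36), while that of Slco1a4 did (adjusted p = 0.0163).

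Leukocyte markers were looked at beside these lists. Of 16 neutrophil markers, 7 were measured and 1 of them rose: S100a8, a calcium-binding protein abundant in neutrophils, with levels of -0.76, -2.04 and -2.12 at 6 h, against -3.8, -3.0 and -2.68 at 2 h and a change of 1.52 ± 0.39 (adjusted p = 0.0247), beside 1.26 in sham cortex. S100a9 was at 1.34 ± 0.58 with overlapping groups (adjusted p = 0.175). The called share of the measured neutrophil markers was 14.3%, near the 13.9% of all genes. The summed signal of the 7 markers was 0.804 to 2.06 times the 75th-percentile signal on the 6 h arrays and 0.389 to 0.839 times on the 2 h arrays, against 0.352 to 1.11 times in sham cortex. Of 14 lymphocyte markers, 9 were measured and 0 passed, with sums of 0.724 to 2.15 at 6 h and 0.723 to 1.49 at 2 h. None of 5 measured red cell markers passed, with sums of 3.88 to 4.44 at 6 h and 3.33 to 4.63 at 2 h. The part of these cells in the rises of adhesion, chemokine and matrix genes was not tested.

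Microglia and macrophage markers went in both directions, 5 of 19 higher and 4 lower. Called shares were 47.4% of these markers and 31.2% of astrocyte markers, against 13.9% of all genes. Tmem119, a marker of resident microglia, was at -1.52, -1.81 and -1.12 at 6 h, against -0.02, -0.34 and -0.05 at 2 h. It fell 2.54-fold (-1.35 ± 0.15, adjusted p = 0.000163) with no overlap, and its 6 h minus 2 h difference was -0.68 in sham cortex. P2ry12, the receptor by which resting microglia sense ADP, was at 0.77, 0.62 and 1.03 at 6 h, against 2.08, 1.89 and 1.9 at 2 h, a 2.23-fold fall (-1.15 ± 0.21, adjusted p = 0.00366). The EPO changes of Tmem119 and P2ry12 did not pass the limma test against sham (adjusted p = 0.133 and 0.105). Aif1 and Csf1r fell less, with changes of -0.37 ± 0.08 and -0.3 ± 0.09. In contrast, the lipopolysaccharide co-receptor Cd14 was at 0.69, 0.85 and 0.47 at 6 h, against -0.96, -1.3 and -0.89 at 2 h and rose 3.3-fold (1.72 ± 0.18, adjusted p = 9.98e-05), and the scavenger receptor Cd163, above background on 1 of 3 arrays at 2 h, rose by 1.08 ± 0.17, Cd74 by 0.64 ± 0.12 and Cd68 by 0.56 ± 0.09. The summed signal of all 19 markers was 52.0 to 61.8 at 6 h and 55.2 to 57.1 at 2 h, so that the whole list overlapped. In these bulk samples, fewer cells of a type and less RNA per cell cannot be told apart. Of 16 astrocyte markers 5 rose and 0 fell, several of them known from reactive astrocytes: the lipocalin Lcn2 at 2.19 ± 0.4, ceruloplasmin (Cp) at 1.52 ± 0.17, nestin (Nes) at 0.81 ± 0.08, Sox9 at 0.61 ± 0.11 and vimentin (Vim) at 0.55 ± 0.11. The 6 h minus 2 h difference of Sox9 was 1.01 in sham cortex, larger than with EPO. Gfap, the astrocyte filament, was at 2.75, 2.82 and 2.48 at 6 h, against 1.93, 2.49 and 2.23 at 2 h, and its groups overlapped (0.47 ± 0.19, adjusted p = 0.129).

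The deepest fall was that of Abra, a protein that binds actin and activates transcription by serum response factor. Its levels were -2.31, -2.66 and -2.18 at 6 h, against 0.73, -0.26 and -0.29 at 2 h, with no overlap and a 5.44-fold difference (-2.44 ± 0.34, adjusted p = 0.000698). Npy1r, a receptor of neuropeptide Y, was at -0.29, -0.05 and 0.36 at 6 h, against 1.19, 1.14 and 1.16 at 2 h. It fell 2.23-fold (-1.15 ± 0.15, adjusted p = 0.000382) in both of its probes. Neurod6, a transcription factor of excitatory cortical neurons, was at 0.11, -0.07 and 0.61 at 6 h, against 0.95, 1.32 and 1.34 at 2 h and fell 1.98-fold (-0.99 ± 0.16, adjusted p = 0.00192). The cadherins Cdh7 and Cdh12 fell by similar amounts, with changes of -1.0 ± 0.09 and -1.05 ± 0.23, and the lipid droplet enzyme Hsd17b13 with -1.02 ± 0.12. Among dim genes, Pnma1, the olfactory receptor Olr59 and Cdh12 were above background on only 1, 2 and 2 of the 3 arrays at 6 h. Tyr, tyrosinase, was above background on 0 of 3 arrays at 6 h and on 3 of 3 at 2 h, and was at least 1.31-fold lower (adjusted p = 0.047), a call kept in 6 of 21 alternatives. Rsph1, a protein of motile cilia, changed by -1.06 ± 0.28 (adjusted p = 0.0282). The EPO changes of Olr59, Cdh12, Tyr and Rsph1 did not pass the limma test against sham (adjusted p = 0.0519, 0.0685, 0.357 and 0.418). Those of Abra, Npy1r, Neurod6, Cdh7, Hsd17b13 and Pnma1 did.

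Cortical neuron markers had 4 of 17 lower and 0 higher, Neurod6 and Neurod1 as well as the neurofilaments Nefh (-0.37 ± 0.06) and Nefm (-0.34 ± 0.08), and 2 without EPO 2 h replicate 2. Their summed signal was 149 to 164 at 6 h and 180 to 185 at 2 h, against 169 to 185 in sham cortex. Of 31 synapse genes 5 fell and 0 rose, with a median of -0.18. The glutamate receptor subunit Gria2 was at 2.9, 2.88 and 2.99 at 6 h, against 3.38, 3.27 and 3.26 at 2 h, a fall of 1.3-fold (-0.38 ± 0.07, adjusted p = 0.00295), and the GABA receptor subunit Gabrd changed by -0.58 ± 0.1. Of 33 voltage-gated channels 6 fell and 1 rose. Scn1a, a sodium channel, changed by -0.66 ± 0.08 (adjusted p = 0.000318), Scn2a by -0.46 ± 0.07 in 1 of 3 probes, and the potassium channel subunit Kcnv1 by -0.57 ± 0.06 (adjusted p = 0.000177). Scn3a rose by 0.39 ± 0.07. Among interneuron markers, Pvalb, the calcium buffer of fast-spiking cells, fell with -0.66 ± 0.13 and the peptide Crh with -0.39 ± 0.11, 2 of 14 in all, although the call of Crh held in 11 of 22 alternatives and was lost when any 1 of the 6 EPO arrays was left out, while Sst was at 0.01 ± 0.12 and Gad1 at 0.22 ± 0.11. Striatal markers had 1 of 14 higher, Ppp1r1b at 0.48 ± 0.12, and 0 lower. Against 13.9% of all genes, 23.5% of cortical neuron markers, 21.2% of channels and 16.1% of synapse genes were called. For interneuron and striatal markers the shares were 14.3% and 7.14%. The synapse and interneuron counts were thus near the share of all genes, and the striatal count below it.

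Circadian and hormone-regulated genes moved in both directions. The clock repressor Cry1 was at 1.02, 1.22 and 1.04 at 6 h, against 0.14, 0.05 and 0.25 at 2 h and rose by 0.95 ± 0.11 (adjusted p = 0.000177). Nr1d1 (REV-ERB alpha) was at -0.92, -0.84 and -0.62 at 6 h, against 0.08, 0.08 and 0.04 at 2 h and changed by -0.86 ± 0.1 (adjusted p = 0.000261), with Per1 at -0.65 ± 0.13 and the output factor Dbp at -0.41 ± 0.1. These were the 4 of 18 clock genes called. In sham cortex the 6 h minus 2 h differences of Cry1 and Nr1d1 were 0.49 and -0.41, and 0 of the 18 passed the test of EPO against sham changes. Glucocorticoid-responsive genes had 3 of 18 higher and 6 lower, with the lipase inhibitor Angptl4 at 1.7 ± 0.16 and Klf15 at -0.57 ± 0.09. Cholesterol synthesis had 3 of 21 lower and 0 higher, among them the enzymes Idi1 at -0.43 ± 0.08 and Dhcr7 at -0.35 ± 0.06. Called shares were 22.2% of clock, 50% of glucocorticoid-responsive and 14.3% of cholesterol genes, against 13.9% of all genes. The cholesterol count was thus near the share of all genes.

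The medians of housekeeping lists lay near that of all genes. Oxidative phosphorylation had 1 of 20 lower (Sdhc at -0.28 ± 0.08), the proteasome 1 of 32 lower (Psma4 at -0.21 ± 0.06) and ribosome biogenesis 4 of 23 higher (2 without EPO 6 h replicate 2 or 3 or EPO 2 h replicate 3), with the helicase Ddx21 at 0.48 ± 0.06 and Noc3l at 0.51 ± 0.11. All 20 oxidative phosphorylation genes had negative changes, -0.28 to -0.08, a size that scaling moves, since centring on the array median took the list's median to -0.37, from -0.16. The calls of Sdhc and Psma4 held in 9 and 7 of 22 alternatives. Oligodendrocyte markers had 1 of 15 higher (Sox10 at 0.27 ± 0.07) and mural cell markers 1 of 12 (Des at 1.39 ± 0.15). None of 12 meningeal markers and none of 6 measured choroid plexus and ependymal markers passed. Called shares were 5% of oxidative phosphorylation, 3.12% of proteasome and 17.4% of ribosome biogenesis genes, against 13.9% of all genes. For oligodendrocyte and mural cell markers they were 6.67% and 8.33%.

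**Figure D3:**
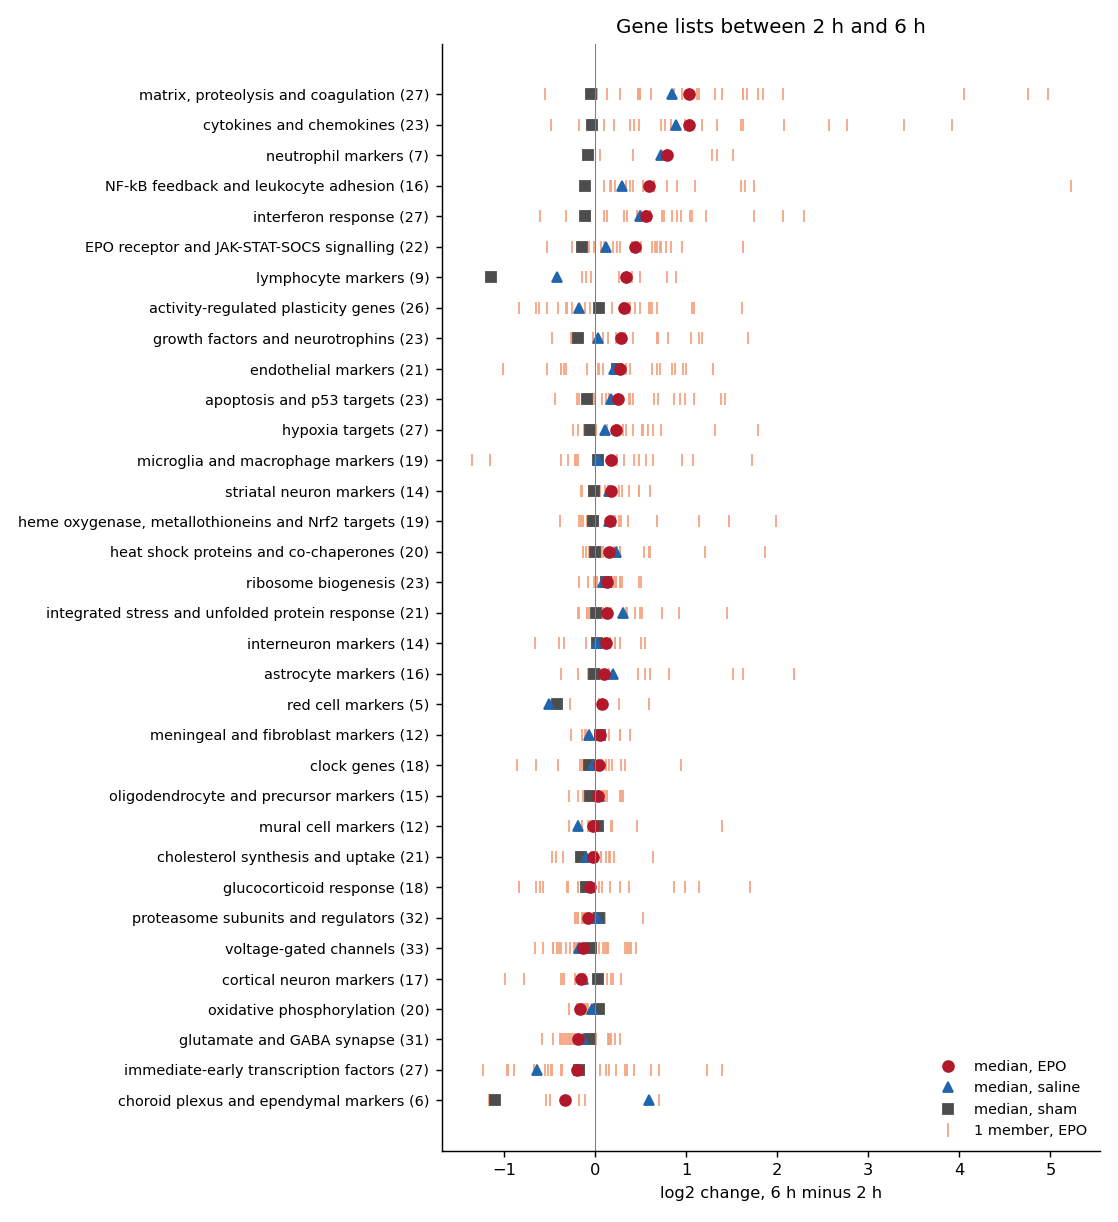
Change between the times for 34 gene lists, with the number of measured members in brackets; circles, triangles and squares are the medians in EPO-treated, saline-treated and sham cortex, and ticks the members in EPO-treated cortex, on a log2 axis of 6 h minus 2 h. Matrix genes and cytokines have the highest EPO medians, 1.03 each, and lie near the saline medians of 0.85 and 0.89 and far from the sham medians of -0.04 and -0.03.

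Immediate-early transcription factors, the early neuronal response to activity and injury, had 5 of 27 members lower, 4 higher and a median of -0.2. These counts were not stable: over 22 alternatives the falls numbered 0 to 17 and the rises 0 to 7. Without EPO 6 h replicate 2, EPO 2 h replicate 2 or EPO 2 h replicate 3 there were 3, 2 and 2 falls, and without EPO 6 h replicate 1, EPO 6 h replicate 2 or EPO 2 h replicate 3 there were 1, 2 and 1 rises. Nr4a1 was at 5.25, 4.0 and 4.93 at 6 h, against 5.52, 5.9 and 5.62 at 2 h and changed by -0.95 ± 0.24 (adjusted p = 0.0224), and its family members Nr4a3 and Nr4a2 by -0.97 ± 0.19 and -0.67 ± 0.09. Against the sham change, that of Nr4a3 with EPO did not pass in limma (adjusted p = 0.132), while that of Nr4a2 did (adjusted p = 0.0095). The call of Nr4a1 was lost with quantile normalization, without scaling, with the array median at 0 and with the slide as a fixed block. It was also lost without the steep arrays, in the fit of the 6 EPO arrays alone and without EPO 2 h replicate 2 or 3. Egr1 was at 4.33, 3.96 and 4.34 at 6 h, against 4.69, 4.84 and 4.63 at 2 h, a change of -0.51 ± 0.14 (adjusted p = 0.0342) that held in 9 of 22 alternatives. Fos was at 3.06, 2.42 and 2.77 at 6 h, against 3.37, 3.59 and 3.17 at 2 h and did not pass (-0.63 ± 0.31, adjusted p = 0.24). The rises were those of Myc at 1.23 ± 0.1 (adjusted p = 1.84e-05), Fosl1 at 1.39 ± 0.37, Csrnp1 at 0.7 ± 0.2 and Ier3 at 0.33 ± 0.08. Among activity-regulated plasticity genes, 5 of 26 rose and 4 fell. Called shares were 33.3% of immediate-early and 34.6% of plasticity genes, against 13.9% of all genes. Bdnf, the neurotrophin of activity-dependent plasticity, was at 1.65, 2.17 and 1.49 at 6 h, against 0.8, 0.71 and 0.59 at 2 h and rose 2.1-fold (1.07 ± 0.2, adjusted p = 0.00432). Nptx2, a pentraxin that clusters glutamate receptors, was at 5.11, 5.45 and 4.94 at 6 h, against 3.65, 3.52 and 3.51 at 2 h and rose 3.04-fold (1.61 ± 0.24, adjusted p = 0.00108). Arc, which regulates the removal of glutamate receptors from synapses, was at 5.51, 4.72 and 4.94 at 6 h, against 4.53, 5.37 and 4.7 at 2 h, with overlapping groups (0.19 ± 0.24, adjusted p = 0.751). Dusp1, a phosphatase of MAP kinases, changed by -0.83 ± 0.14 and Dusp6 by -0.61 ± 0.16.

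The change in EPO-treated cortex was then set against that in saline-treated cortex, which shares no array with it. Both changes were tested in 1 model with a common estimate of each probe's spread. The 6 h arrays of both treatments lay on slides 2, 3 and 5. Calls shared by the treatments are therefore not independent of each other. Of the probes called in EPO, 98.7% of those higher and 98.7% of those lower had the same sign in saline, against 63.3% of all probes, and 61.9% and 37.5% were also called there, where 3.73% of all probes were called higher and 3.48% lower. In sham cortex, 62.7% and 59.8% had the same sign, against 45.6% of all probes, and 56 and 15 probes were also called (0.307% of all probes were called higher and 0.164% lower). Of the probes called in saline, 76.3% of those higher and 72.5% of those lower were called in EPO. Across the 12429 genes, which are not independent replicates, the changes correlated with r = 0.402 as scaled and r = 0.727 with the slope class as a block. The EPO and sham changes correlated with r = -0.239 and -0.0396, and the saline and sham changes with r = 0.514 and 0.117, in the same order, so that the values moved with the treatment of slope class. A test of the difference between the EPO and saline changes called 0 of 28637 probes in limma (0%, smallest adjusted p 0.917), with 668 at an unadjusted p under 0.05. Among genes, 2.39% had such a p, less than the share of 0.05 that a test gives where nothing differs. The 95% interval of the difference reached a median of 0.41 to either side before any adjustment, and differences well above this, such as that of Arc below, did not pass. Serpina3n differed by -1.41 ± 0.96 (interval -3.49 to 0.67) and Spp1 by 1.58 ± 0.96 (-0.49 to 3.65).

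**Figure D4:**
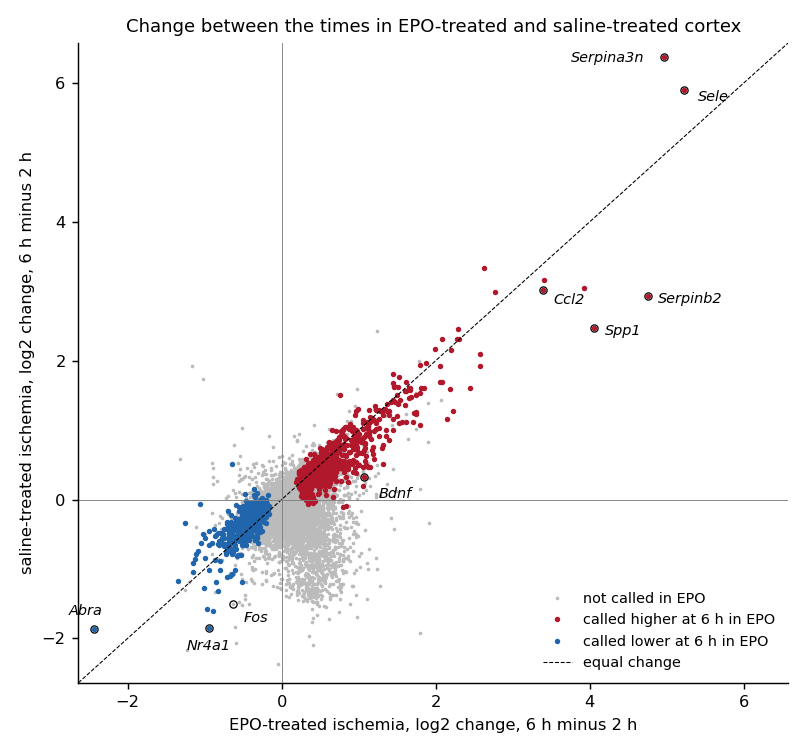
Change between the times of 12429 genes in EPO-treated cortex (horizontal axis) and in saline-treated cortex (vertical axis), log2, 6 h minus 2 h; red and blue points were called higher and lower in EPO, grey points were not called, and the dashed line marks equal change. Called genes lie along the line, with Serpina3n and Sele above it and Serpinb2 and Spp1 below it, and a cloud of genes not called lies in the lower right.

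Immediate-early genes had a lower median change in saline. The median was -0.20 in EPO, -0.63 in saline and -0.17 in sham cortex, and 26 of 27 members had a more positive change in EPO than in saline, against 53% of all genes. Of the plasticity genes 24 of 26 did, with medians of 0.32 in EPO, -0.17 in saline and 0.05 in sham. With the slope class as a block the counts were 26 of 27 and 24 of 26, and without the steep arrays 22 of 27 and 23 of 26. With the array median at 0, which put 17.7% of all genes above saline, they were 17 and 13. Members of these lists share arrays, and no member passed the test of the difference, so the counts are a description. Other lists were also one-sided. Changes were above those of saline in 19 of 22 JAK-STAT-SOCS genes. Below-saline changes prevailed elsewhere, with 3 of 20 chaperones, 3 of 32 proteasome genes and 0 of 20 oxidative phosphorylation genes above. The median differences of these 4 lists were 0.22, -0.1, -0.08 and -0.12, against 0.43 and 0.35 for immediate-early and plasticity genes. Some cell type lists were one-sided too. Changes were above saline in 8 of 9 lymphocyte, 5 of 5 red cell and 18 of 21 endothelial markers, with median differences of 0.68, 0.47 and 0.26. For choroid plexus and ependymal markers 1 of 6 was above, with a median difference of -0.96. Nr4a1 levels in saline-treated cortex were 3.72, 4.03 and 4.15 at 6 h, against 5.74, 5.76 and 5.96 at 2 h. The saline arrays were thus lower than EPO replicates 1 and 3 at 6 h and close to EPO replicate 2, and the difference of changes was 0.9 ± 0.34 (95% interval 0.17 to 1.64, adjusted p = 0.917). Arc in saline was at 4.12, 3.99 and 4.36 at 6 h, against 4.99, 5.3 and 5.33 at 2 h. Its 3 saline arrays at 6 h lay below all EPO arrays, and the difference was 1.24 ± 0.34 (0.51 to 1.96, adjusted p = 0.917). Egr1 differed by 0.68 ± 0.2 (0.24 to 1.11), Fosl2 by 0.9 ± 0.24 (0.38 to 1.42), Bdnf by 0.74 ± 0.28 (0.13 to 1.36) and Fos by 0.86 ± 0.44 (-0.09 to 1.82), each with the same adjusted p.

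**Figure D5:**
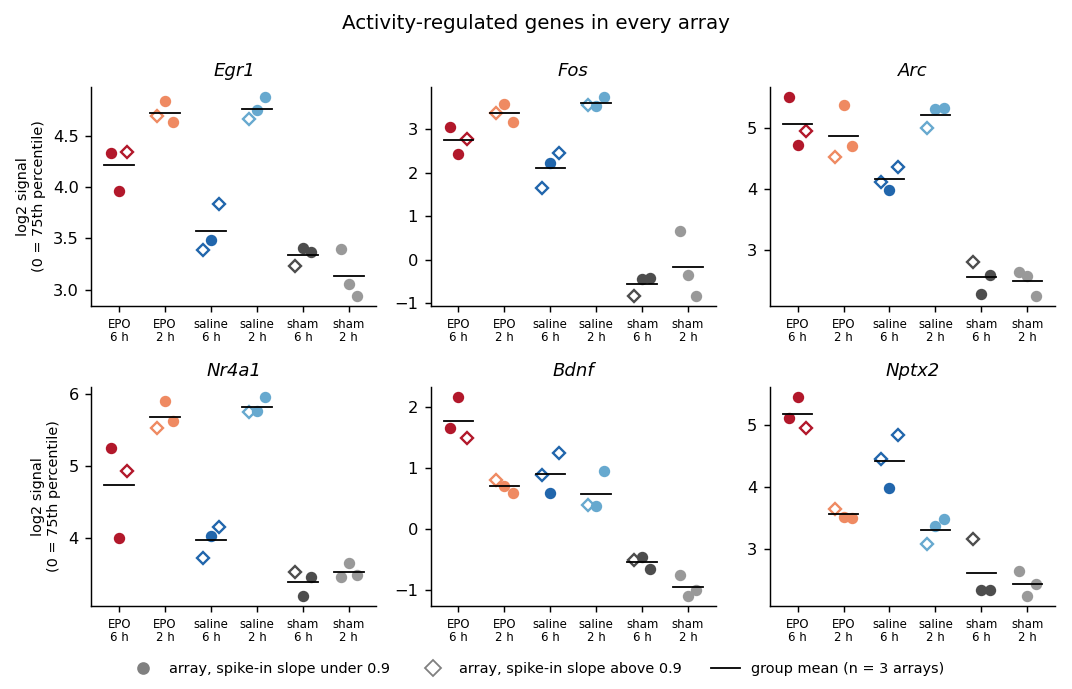
Level of 6 activity-regulated genes on all 18 arrays, in log2 signal with the array's 75th percentile at 0; filled circles are arrays with a spike-in slope under 0.9, open diamonds those above 0.9, and lines are group means (3 arrays). Arc at 6 h is 4.72 to 5.51 in EPO and 3.99 to 4.36 in saline, and both groups lie far above sham; no EPO and saline change differed in the test.

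The genes of smallest p for the difference from saline included Arhgap45, Fosl2, Mas1 and Sox2 with more positive changes in EPO, and Cluap1, C10h5orf15, Sephs2, Gpsm2 and Rfc3 with more negative ones. None passed (adjusted p = 0.917 for each). Mas1, the receptor of angiotensin-(1-7), was at 1.15, 1.34 and 1.3 at 6 h, against 0.43, 0.53 and 0.43 at 2 h in EPO and changed by 0.8 ± 0.17, against -0.11 in saline. Cluap1, a protein of cilia assembly, changed by -0.36 ± 0.07 in EPO and 0.15 in saline (difference -0.51 ± 0.1, interval -0.73 to -0.29).

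Against the change in sham cortex, 713 probes (2.49%) differed, 383 with a more positive and 330 with a more negative change in EPO, and 408 of 12429 genes (3.28%) did, 234 of them (1.88%) more positive and 174 (1.40%) more negative. Matrix genes accounted for 11 of 27 members, interferon genes for 8 of 27, NF-kB and adhesion genes and apoptosis genes for 7 of 16 and 7 of 23, and cytokines for 6 of 23, all more positive in EPO. Clock, synapse, cholesterol, proteasome and oxidative phosphorylation genes accounted for 0. Gbp2 was at -0.17, 0.01 and -0.54 at 6 h, against -0.33, -0.37 and -0.47 at 2 h in sham, and differed by 2.14 ± 0.18 (adjusted p = 8.72e-05). Sdc1 differed by 1.92 ± 0.14 (adjusted p = 3.29e-05) and Hmox1 by 1.95 ± 0.23 (adjusted p = 0.00118). Npy1r was at 1.33, 1.28 and 1.13 at 6 h, against 0.54, 0.77 and 0.9 at 2 h in sham cortex, where the 6 h arrays were the higher ones. The changes differed by -1.66 ± 0.21 (adjusted p = 0.00163). For Kcnv1 the 6 h minus 2 h difference in sham was 0.5, and the changes differed by -1.07 ± 0.09 (adjusted p = 0.000111). The count fell to 216 with the slide as a block, 99 without the steep arrays and 1 with the array median at 0, and leaving out single arrays gave 327 to 1025. Higher calls were 53.7% of the total as scaled and 85.5% without scaling.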

How the data were processed

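Total RNA of 18 rat cortex samples was measured on 1-colour arrays. Per the file headers, the authors' scans were read with Agilent Feature Extraction 9.1.1.1, which gave background-subtracted intensity values. The authors' deposited table of log2 values was the mean log2 processed signal without scaling (largest difference 5.33e-14) and served as an alternative. From the intensity values, log2 processed signal minus the array's 75th percentile was computed here. Of 41012 probes (43379 spots, averaged without outlier flags; 1639 control spots left out), 28637 were tested, namely those flagged well above background on all 3 arrays of 1 group or more; 345 were left out for lost spots. Accession named 10735 probes, symbol 5571, synonym 3729, and 20977 kept the file's name. A gene was read through its brightest tested probe.

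One limma 3.58.1 model (R 4.3.3) of 6 group means over all 18 arrays gave the EPO change and its difference from the saline and sham changes, with Benjamini-Hochberg adjustment over all probes at 0.05. It was tested on simulated data with independent noise for each probe and array. That noise lacks differences shared by many probes, such as those of the slope classes, so the simulation does not give error rates for these arrays. "At least" folds set the brighter group's mean against the background limit, where all arrays of the dimmer group were below background.

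The groups, the 34 gene lists and the tests were chosen with earlier results of these data known. The named genes were the 15 largest non-overlapping rises and falls, per list as many as 3 members with the lowest p, 5 in each direction for each difference, and 14 fixed genes; other list members were named after their values were seen, and some genes are not reported here. Alternatives covered scaling, background, filters, blocks, the steep arrays and single arrays. The number of arrays limits the precision.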

Additional observations from a re-analysis of the deposited data

Results flagged for a closer look

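The change in EPO-treated cortex differed from that in sham cortex by the test of the difference itself for 713 probes, and the values below are EPO minus sham changes on the log2 scale. The largest fitted positive differences were 5.82 for Serpinb2 (adjusted p = 0.0193), 4.67 for Zscan25 (adjusted p = 0.0358), 4.62 for Sele (adjusted p = 0.00501), 4.55 for Ccl20 (adjusted p = 0.0374) and 4.07 for Spp1 (adjusted p = 0.043). Sele and Ccl20 were below background on all EPO 2 h arrays and Serpinb2 on 2 of 3, so that the sizes and the order of these differences rest partly on background-level signals. Zscan25, a zinc finger gene, was at -0.84, -3.51 and -2.17 at 6 h, against -5.2, -3.63 and -3.12 at 2 h with EPO and did not pass there (1.8 ± 0.74, adjusted p = 0.148), and its 6 h minus 2 h difference in sham was -2.87. The largest negative differences were -2.82 for Abra (adjusted p = 0.00926), -1.66 for Npy1r (adjusted p = 0.00163), -1.59 for Neurod6 (adjusted p = 0.00288), -1.22 for Tmem273 (adjusted p = 0.0483) and -1.13 for Lrrn3 (adjusted p = 0.00262). Tmem273 kept this call in 5 of 27 alternatives, Spp1 in 8 of 28, Zscan25 in 11 of 27 and Ccl20 in 12 of 27, while Npy1r and Lrrn3 kept it in 27 of 28.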

How the results depend on the processing

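The 3241 calls between the times in EPO-treated cortex and the 713 differences from sham became 1227 and 262 without scaling, 87 and 1 with the array median at 0, 2160 and 333 with no filter on dim probes, 1130 and 99 without the steep arrays, and 213 and 241 in fits of the compared arrays alone. With the slide as a fixed block the differences from sham numbered 216. Array weights, whose fit did not converge and whose weights ran from 0.261 to 64.1, gave 19059, 7913 and 594 calls for EPO, EPO against sham and EPO against saline. Leaving out 1 array gave 1869 to 3367 calls for EPO, 0 to 1 for the difference from saline (1 without saline 2 h replicate 3) and 327 to 1025 for the difference from sham. The call counts against saline were 0 under all other settings. The EPO count fell by over 1.5 times without EPO 6 h replicate 1 (1869), EPO 6 h replicate 2 (1944) or EPO 2 h replicate 2 (1898). For the difference from sham this held for EPO 6 h replicates 1 and 2 (374, 334), EPO 2 h replicates 2 and 3 (344, 464), sham 6 h replicates 1, 2 and 3 (429, 468, 327) and sham 2 h replicates 1 and 2 (387, 405). Deviations from the group means of EPO arrays with the same replicate number correlated with -0.86, 0.236 and -0.821. In replicates 1 and 3 only 1 of these arrays was steep, so the values cannot show whether replicate numbers paired the samples. A replicate block gave 2969 calls for EPO, 0 against saline and 495 against sham. Epor changed sign with quantile normalization (-0.22), with the array median at 0 (-0.14) and without EPO 6 h replicate 1 (-0.19), EPO 2 h replicate 1 (-0.14) or EPO 2 h replicate 2 (-0.05), with single arrays left out giving -0.19 to 0.39. Arc did so with the array median at 0 (-0.02), with array weights (-0.61) and without EPO 6 h replicate 1 (-0.04; range over single arrays left out -0.04 to 0.44). Arhgap45 against saline was -0.01 with the array median at 0, Kcne2 0.13 without the steep arrays, Epb42 -0.25 and Nkg7 -0.04 with array weights, Foxj1 0.01 without EPO 6 h replicate 2 (range -0.21 to 0.01), and Slc4a1 0 (range 0 to 0.41) and Cd4 -0.07 without EPO 2 h replicate 1. Of 104 named genes called, 74 kept the call in all but at most 2 alternatives and 0 changed sign. Counts of alternatives here and above include leaving out saturated spots, which repeated the 3241 calls of the main fit. They also include array weights, under which 0 of the 104 lost the call. All alternatives share arrays with the main fit, so kept calls and signs are not independent support. The call was lost by 77 of the 104 with the array median at 0 and by 66 in the fit of the 6 EPO arrays alone. The causes were not tested. Genes near background have only a bound.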
